A study of Mus musculus with 4 samples.

Results

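The genes described here are 10 genes of fatty acid synthesis, 9 enzymes that make, feed or modify new fatty acid chains and the lipid droplet protein gene *Pnpla3*, namely *Fasn*, *Acaca*, *Acacb*, *Acly*, *Acss2*, *Me1*, *Scd1*, *Elovl6*, *Fads2* and *Pnpla3*, out of 19505 genes measured. They were chosen by gene symbol, with earlier results of these data known, and each had 1 probe set on the array. RNA came from epididymal adipose tissue, a white fat depot next to the epididymis, taken from male mice, and was read on Clariom S Mouse arrays with 1 array per group. The group GW-SA received GW4869, which blocks the release of extracellular vesicles, and synergist ablation, surgery that removes helper muscles so that the remaining muscle is overloaded. GW-Sham received GW4869 and sham surgery. Veh-SA received DMSO, the vehicle, and synergist ablation, and Veh-Sham received DMSO and sham surgery. All 4 groups thus received an agent or its solvent and an operation. The sources used here do not give strain, age, dose or time after surgery, nor whether mice were pooled for an array. With 1 array per group there was no replicate error and no test, so every difference below is between single arrays. The series addresses how vesicles from overloaded muscle relate to fat breakdown in adipose tissue, and the synthesis genes give the opposite arm of the fat balance.

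In fat cells, surplus glucose carbon leaves the mitochondrion as citrate, which ATP citrate lyase splits in the cytosol to acetyl-CoA. Acetyl-CoA carboxylase turns acetyl-CoA into malonyl-CoA, and fatty acid synthase joins these units into palmitate with reducing power from NADPH. Elongases and desaturases then lengthen the chain or place double bonds in it, and in adipose tissue the products are stored as triglyceride under control of insulin through SREBP-1c and of glucose through ChREBP.

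The values are log2 expression as deposited, and a fold is the ratio on that scale. They reach log2 19.93, beyond the raw range of an ordinary array scanner, and the step that set this scale is not known, so a fold need not equal a ratio of RNA amounts. A gene counted as higher or lower when the arrays differed by at least 1.5-fold. Genes with a mean above log2 4.67, the 40th percentile of all means, were kept as above the floor, 11703 of 19505. All 10 synthesis genes passed the floor, with 0 having any array under it. On every array all 10 also exceeded the 95th percentile of the 23 antigenomic background rows, between log2 6.34 and 6.40. The 95th percentile of the 5222 negative control rows was higher, between log2 9.01 and 9.27. *Acacb* lay under it on all 4 arrays and *Acss2* on the GW-SA array, so their differences were measured partly within the range of those control rows.

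The 4 arrays were not alike in the tissue they held. Of 17 measured adipocyte markers, 16 exceeded the antigenomic 95th percentile on every array, *Cidea* being below it on each. *Adipoq*, which encodes adiponectin, read log2 19.34 on GW-SA, 19.58 on GW-Sham, 19.67 on Veh-SA and 19.59 on Veh-Sham. Of 16 measured epididymal epithelium markers, 13 exceeded that percentile on GW-SA, 0 on GW-Sham, 0 on Veh-SA and 6 on Veh-Sham. Of 5 measured distal epididymis and vas deferens markers, the counts were 0 on GW-SA, 5 on GW-Sham, 0 on Veh-SA and 5 on Veh-Sham. That list was assembled from earlier results of these data, so its counts are not independent of these arrays. Of 15 sperm and testis markers, the counts were 4 on GW-SA, 1 on GW-Sham, 1 on Veh-SA and 15 on Veh-Sham. The epididymal marker *Gpx5*, a secreted glutathione peroxidase, stood at log2 19.53 on GW-SA, 4.51 on GW-Sham, 3.97 on Veh-SA and 4.18 on Veh-Sham. In such bulk RNA, fewer cells of a type and less RNA per cell cannot be told apart.

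Most of the 10 synthesis genes were lowest on the GW-SA array. *Fasn*, *Acaca*, *Acss2*, *Me1* and *Pnpla3* were each at least 1 log2 unit lower there than on each of the other 3 arrays, a placement that 86 of 11703 genes, or 0.735%, shared. GW-SA was the lowest of the 4 arrays for 8 of 10 synthesis genes, against 22.3% of all genes above the floor. The exceptions were *Elovl6* and *Fads2*, which were highest on GW-SA and lowest on Veh-SA. Of all genes above the floor, 26.7% were highest on GW-SA and 18.9% lowest on Veh-SA, so 2 of 10 was no more than the general share for the first and near it for the second. Among the 8 synthesis genes lowest on GW-SA, *Scd1*, *Acacb* and *Acly* lay only 0.13, 0.22 and 0.27 log2 units below the next lowest array. With each array centred on its adipocyte marker median, *Acly* and *Scd1* were 0.22 and 0.35 log2 units higher on GW-SA than on Veh-SA. GW-Sham was the highest array for 6 of 10 genes, against 23.4% of all genes.

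**Figure D1:**
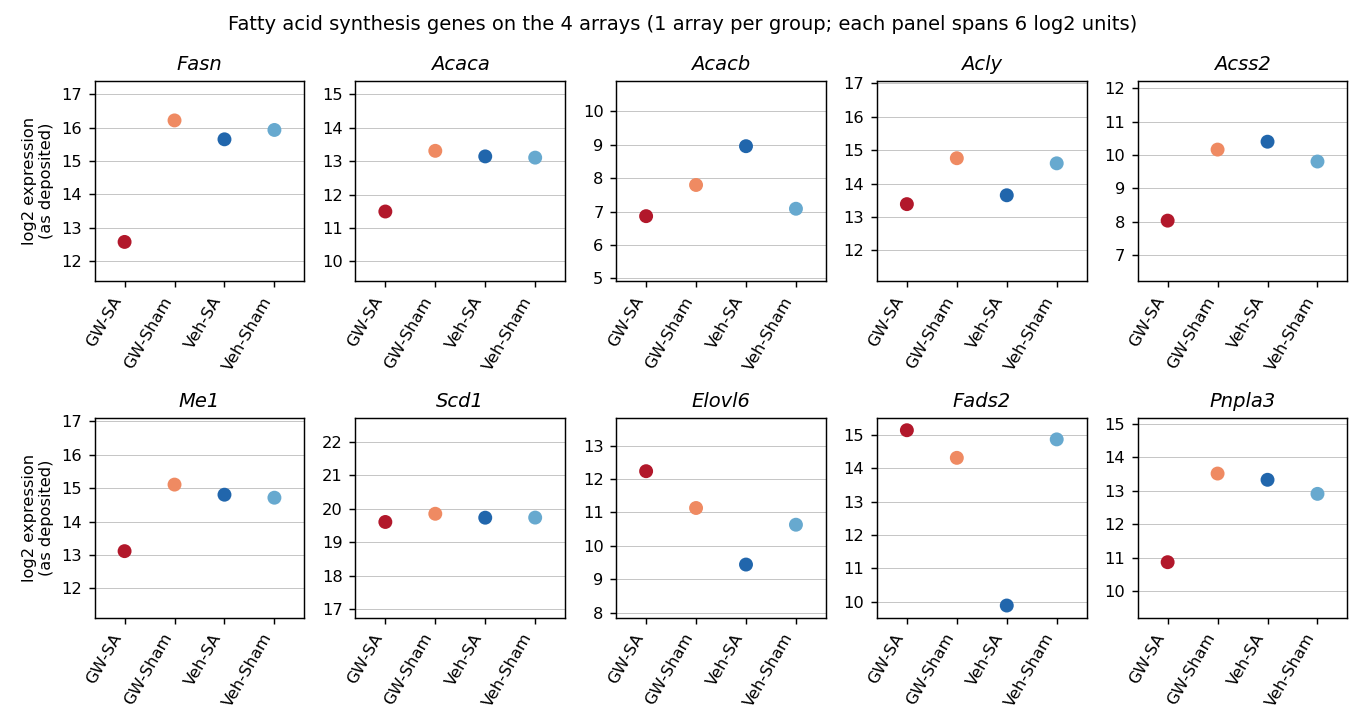
Deposited log2 expression (vertical axis) of the 10 fatty acid synthesis genes on the GW-SA, GW-Sham, Veh-SA and Veh-Sham arrays (horizontal axis), 1 point per array and no error bars, with every panel spanning 6 log2 units. *Fasn*, *Acaca*, *Acss2*, *Me1* and *Pnpla3* have their low point on GW-SA, *Scd1* lies nearly flat near log2 19.73, and *Fads2* has its low point of 9.89 on Veh-SA.

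Cytosolic acetyl-CoA is made by *Acly*, the ATP citrate lyase, and by *Acss2*, which activates free acetate. *Acly* read log2 13.39 on GW-SA, 14.76 on GW-Sham, 13.65 on Veh-SA and 14.61 on Veh-Sham. The 2 overloaded mice's arrays were the lower ones, and how many of all genes shared that order was not counted. The 2 sham arrays were also those with distal tract markers above the antigenomic 95th percentile, from a list assembled with earlier results of these data. The part of that tissue was not tested. *Acly* was 2.59-fold lower in GW-SA than in GW-Sham (log2 difference -1.38) and 1.94-fold lower in Veh-SA than in Veh-Sham (log2 difference -0.96). It was the only synthesis gene other than *Fasn* and *Scd1* whose 2 overload differences had the same sign, and its difference of differences was -0.42.

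*Acss2* read log2 8.03 on GW-SA, 10.16 on GW-Sham, 10.40 on Veh-SA and 9.80 on Veh-Sham. The 3 other arrays spanned 0.59 log2 units, and GW-SA lay 1.77 below the lowest of them. *Acss2* was 4.37-fold lower in GW-SA than in GW-Sham (log2 difference -2.13), while Veh-SA was 1.51-fold higher than Veh-Sham (log2 difference 0.59), just past the threshold. With values under the negative control 95th percentile set to it, the log2 difference of GW-SA from GW-Sham was -0.89.

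*Me1*, the cytosolic malic enzyme that yields NADPH, read log2 13.11 on GW-SA, 15.11 on GW-Sham, 14.81 on Veh-SA and 14.72 on Veh-Sham. GW-SA again stood apart, 1.60 log2 units below the lowest of the other 3, which spanned 0.39. It was 3.98-fold lower in GW-SA than in GW-Sham (log2 difference -1.99), and Veh-SA differed from Veh-Sham by 0.09.

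The carboxylases form malonyl-CoA in separate pools. *Acaca* encodes the cytosolic enzyme that feeds synthesis, and *Acacb* the form at the mitochondrial surface whose malonyl-CoA restrains fatty acid import for oxidation. *Acaca* read log2 11.49 on GW-SA, 13.31 on GW-Sham, 13.15 on Veh-SA and 13.11 on Veh-Sham. The 3 other arrays lay within 0.20 log2 units, the tightest spread among the 5 genes set apart on GW-SA. The level was 3.53-fold lower in GW-SA than in GW-Sham (log2 difference -1.82), and Veh-SA differed from Veh-Sham by 0.04.

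*Acacb* read log2 6.86 on GW-SA, 7.80 on GW-Sham, 8.96 on Veh-SA and 7.09 on Veh-Sham. Veh-SA was the high array, and GW-SA and Veh-Sham were within 0.22 log2 units. It was 1.91-fold lower in GW-SA than in GW-Sham (log2 difference -0.93) and 3.67-fold higher in Veh-SA than in Veh-Sham (log2 difference 1.87). Since all 4 readings lay under the negative control 95th percentile, raising each to that percentile left log2 differences of 0.09 and 0.18.

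*Fasn*, the synthase that assembles palmitate, read log2 12.58 on GW-SA, 16.22 on GW-Sham, 15.65 on Veh-SA and 15.93 on Veh-Sham. The 3 other arrays spanned 0.57 log2 units, and GW-SA lay 3.07 below the lowest of them. *Fasn* was 12.5-fold lower in GW-SA than in GW-Sham (log2 difference -3.64), and 14 of 11703 genes had a lower difference. Veh-SA differed from Veh-Sham by -0.28. Between the overloaded mice, *Fasn* was 8.42-fold lower in GW-SA than in Veh-SA (log2 difference -3.07), and 1 gene had a lower difference.

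*Pnpla3* encodes a lipid droplet protein with triglyceride and retinyl ester hydrolase activity whose expression follows lipogenic stimuli. It read log2 10.86 on GW-SA, 13.52 on GW-Sham, 13.33 on Veh-SA and 12.91 on Veh-Sham. GW-SA lay 2.05 log2 units below the lowest of the other 3, which spanned 0.61. The level was 6.30-fold lower in GW-SA than in GW-Sham (log2 difference -2.66), with 29 genes lower, and Veh-SA differed from Veh-Sham by 0.42. Its relative *Pnpla2*, the adipose triglyceride lipase, read log2 18.54 on GW-SA, 18.53 on GW-Sham, 18.77 on Veh-SA and 18.35 on Veh-Sham. Of 5 measured Pnpla family genes besides *Pnpla3*, 3 lay above the floor, and 0 of these were higher and 0 lower in GW-SA than in GW-Sham. In Veh-SA against Veh-Sham 1 was higher, *Pnpla6*, which encodes a lysophospholipase and read above the antigenomic 95th percentile on Veh-SA alone. *Pnpla7* differed by 0.29.

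*Scd1*, the stearoyl-CoA desaturase that makes oleate and palmitoleate, read log2 19.61 on GW-SA, 19.85 on GW-Sham, 19.73 on Veh-SA and 19.74 on Veh-Sham. Its 4 values spanned 0.25 log2 units, the narrowest of the 10 genes. The top of the table was between log2 19.74 and 19.93 on the 4 arrays, and 7 genes on GW-SA, 1 on GW-Sham, 2 on Veh-SA and 3 on Veh-Sham read above *Scd1*. Whether differences are compressed so close to the top of the scale was not tested.

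*Elovl6*, the elongase that takes palmitate to stearate, read log2 12.24 on GW-SA, 11.13 on GW-Sham, 9.44 on Veh-SA and 10.63 on Veh-Sham. The 2 GW4869 arrays were the high ones and Veh-SA the low one. *Elovl6* was 2.15-fold higher in GW-SA than in GW-Sham (log2 difference 1.10) and 2.29-fold lower in Veh-SA than in Veh-Sham (log2 difference -1.19). Between the overloaded mice it was 6.95-fold higher in GW-SA than in Veh-SA.

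*Fads2*, the delta-6 desaturase of polyunsaturated fatty acid synthesis, read log2 15.14 on GW-SA, 14.31 on GW-Sham, 9.89 on Veh-SA and 14.87 on Veh-Sham. Veh-SA alone was low, and the other 3 arrays lay within 0.83 log2 units. *Fads2* was 1.77-fold higher in GW-SA than in GW-Sham (log2 difference 0.83) and 31.5-fold lower in Veh-SA than in Veh-Sham (log2 difference -4.98). It was also 38.1-fold higher in GW-SA than in Veh-SA (log2 difference 5.25). *Fads1*, the delta-5 desaturase of the same route, read log2 11.71 on GW-SA, 12.01 on GW-Sham, 11.16 on Veh-SA and 11.75 on Veh-Sham, a log2 difference of -0.59 between Veh-SA and Veh-Sham.

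No single list of genital tract markers followed *Fads2* and *Elovl6* over the 4 arrays, but Veh-SA was the array with the fewest such markers. Veh-SA, where both genes were lowest, had 0 of 16 epididymal epithelium markers, 0 of 5 distal tract markers and 1 of 15 sperm and testis markers above the antigenomic 95th percentile. The epididymal epithelium markers had medians of log2 13.36 on GW-SA, 3.79 on GW-Sham, 3.67 on Veh-SA and 4.50 on Veh-Sham. The distal tract markers had medians of log2 4.48 on GW-SA, 12.57 on GW-Sham, 3.35 on Veh-SA and 12.05 on Veh-Sham. Sperm and testis markers had medians of log2 4.42 on GW-SA, 3.52 on GW-Sham, 3.84 on Veh-SA and 14.04 on Veh-Sham. The 3 other arrays thus each held at least 1 of these lists with a median of log2 12.05 or more. For GW-Sham this rested on the distal tract list alone, which was assembled from earlier results of these data. On the epididymal epithelium and sperm and testis lists, GW-Sham and Veh-SA had equal counts above the antigenomic 95th percentile. The epithelial genes *Krt8*, *Krt18*, *Epcam* and *Cdh1* had the same order of arrays as *Fads2*, from GW-SA through Veh-Sham and GW-Sham to Veh-SA. How many of all genes shared that order was not counted. *Cdh1* read log2 14.07 on GW-SA, 9.40 on GW-Sham, 4.46 on Veh-SA and 10.67 on Veh-Sham. *Krt19* was also lowest on Veh-SA but highest on GW-Sham, and *Msln*, *Upk3b*, *Lrrn4* and *Wt1* were not lowest on Veh-SA. *Elovl6* was 0.50 log2 units higher on GW-Sham than on Veh-Sham, which is within 1.5-fold. Veh-Sham had the most tract markers above the antigenomic 95th percentile. The part of tract tissue or epithelial cells in the *Fads2* and *Elovl6* differences was not tested. *Elovl2*, which lengthens long polyunsaturated chains and is abundant in mouse testis, read log2 7.02 on GW-SA, 3.22 on GW-Sham, 3.30 on Veh-SA and 11.17 on Veh-Sham, so the GW-Sham and Veh-SA values were under the floor.

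**Figure D2:**
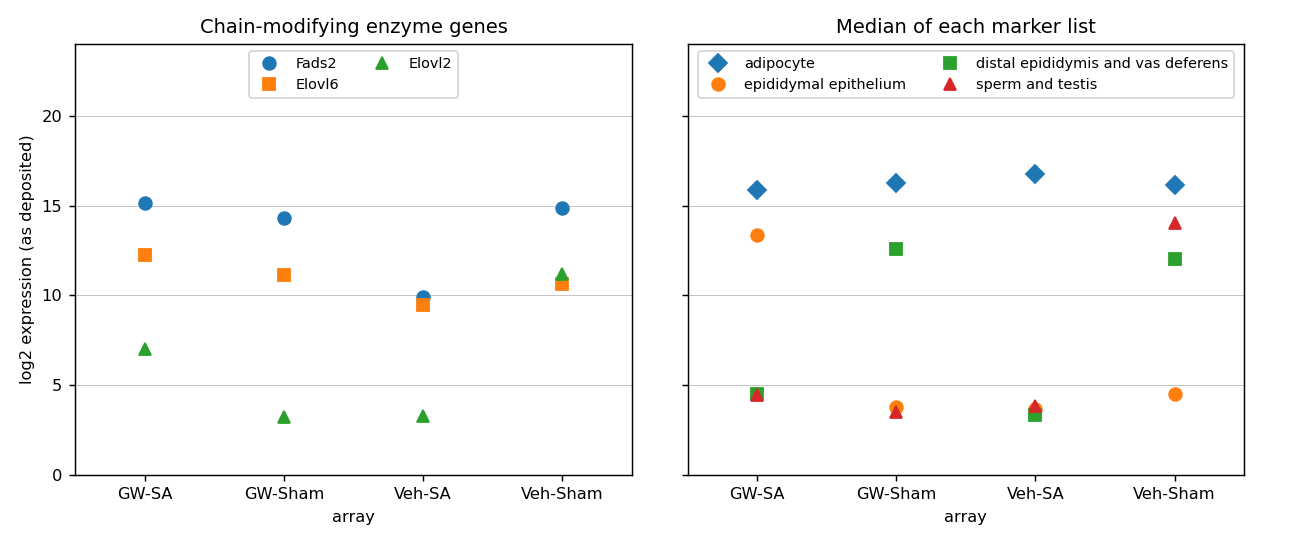
Deposited log2 expression (vertical axes) on the 4 arrays (horizontal axes), for *Fads2*, *Elovl6* and *Elovl2* on the left and for the medians of the adipocyte, epididymal epithelium, distal epididymis and vas deferens, and sperm and testis marker lists on the right, 1 point per array and no error bars. On Veh-SA, *Fads2* and *Elovl6* have their lowest points and the 3 tract medians lie between log2 3.35 and 3.84, while the adipocyte median is at its highest, 16.73.

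Comparing GW-SA with GW-Sham describes overload under GW4869. Of the 10 synthesis genes, 2 were higher, 7 lower and 1 between, and their median log2 difference was -1.60. Among all 11703 genes above the floor, 13.4% were higher and 15.3% lower, with a median of -0.04. With each array centred on its adipocyte marker median, those shares were 28.6% and 6.72%. The 7 lower genes were *Fasn*, *Pnpla3*, *Acss2*, *Me1*, *Acaca*, *Acly* and *Acacb*, which make or feed palmitate synthesis except for *Pnpla3* and *Acacb*. The 2 higher ones, *Elovl6* and *Fads2*, act on finished chains.

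The adipocyte markers differed less than most of these genes. In GW-SA against GW-Sham, 0 of 16 adipocyte markers above the floor were higher and 3 lower, with a median of -0.39 and a range of -1.47 for *Lep* to 0.01 for *Fabp4*. *Fasn*, *Acaca*, *Acss2*, *Me1* and *Pnpla3* lay below all 16, and *Elovl6* and *Fads2* above all 16. Over all 17 measured markers, *Cidea* included, the medians were log2 15.86 on GW-SA and 16.28 on GW-Sham. With each array centred on its median over the 16 markers above the floor, the synthesis genes' median difference was -1.27.

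Other cell type markers also differed between these arrays, beside the tract markers above. The 7 measured neutrophil markers had a median of log2 7.94 on GW-SA and 4.90 on GW-Sham, and a median log2 difference of 2.40. On GW-SA 0 of the 7 exceeded the negative control 95th percentile. Of 8 endothelial markers 0 were higher and 4 lower in GW-SA than in GW-Sham, with a median log2 difference of -0.61, and of 7 fibroblast and progenitor markers 0 were higher and 4 lower, with a median of -0.78. Of 11 macrophage markers 3 were higher and 1 lower, with a median of -0.05. The 9 mesothelial and epithelial markers split, with 4 higher (*Krt8*, *Krt18*, *Epcam* and *Cdh1*, epithelial genes) and 4 lower (*Msln*, *Upk3b*, *Lrrn4* and *Wt1*, mesothelial genes). The part of these cells in the lower synthesis genes was not tested.

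Comparing Veh-SA with Veh-Sham describes overload without GW4869. Here 2 synthesis genes were higher (*Acacb* and *Acss2*), 3 lower (*Fads2*, *Elovl6* and *Acly*) and 5 between, with a median log2 difference of 0.02. Among all genes 30.2% were higher and 16.9% lower, with a median of 0.26. Those shares were 9.72% and 30.8% after centring on the adipocyte markers, and 15.3% and 23.8% after removal of the trend of difference on level. *Fasn*, *Acaca*, *Me1*, *Scd1* and *Pnpla3* differed by -0.28 to 0.42. The 16 adipocyte markers had a median of 0.38, and 7 of them were higher. *Fasn*, *Acly*, *Elovl6* and *Fads2* lay below all 16 and *Acacb* above all 16. With each array centred on its adipocyte marker median, the differences of *Fasn* and *Acss2* were -0.76 and 0.12, which put *Fasn* past the threshold and *Acss2* within it. Markers of other tissues also differed. Over all markers measured, above the floor or not, the median was -10.53 for 15 sperm and testis and -7.81 for 5 distal tract markers. It was -0.47 for 16 epididymal epithelium markers. Endothelial markers were higher for 6 of 8 and macrophage markers for 6 of 11, with 0 lower and medians of 0.91 and 0.65. The part of these tissues and cells was not tested.

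**Figure D3:**
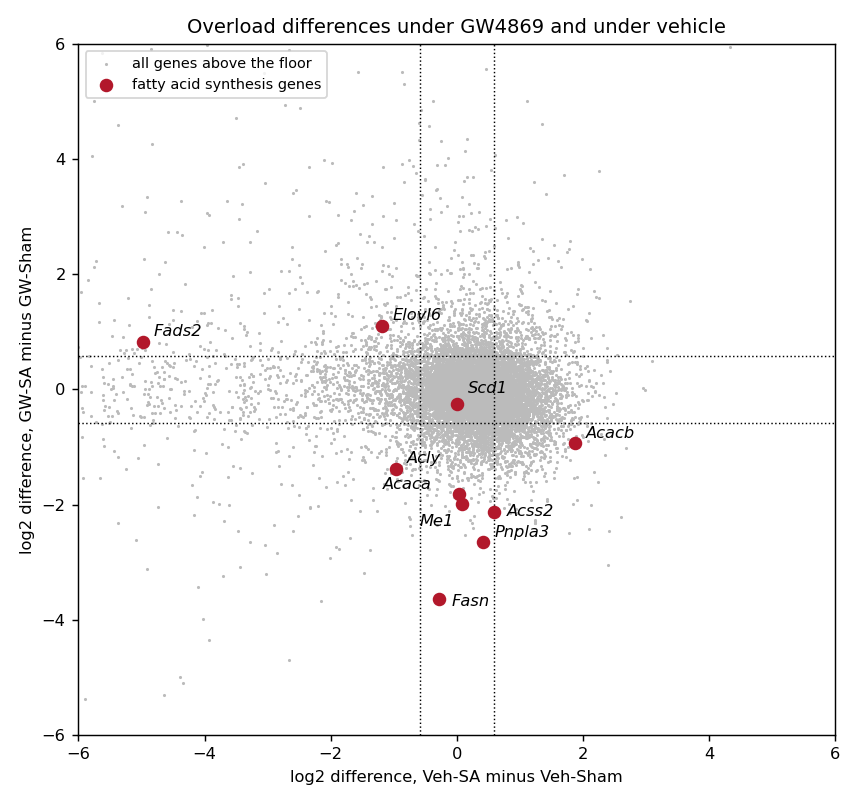
Log2 difference of GW-SA from GW-Sham (vertical axis) against log2 difference of Veh-SA from Veh-Sham (horizontal axis) for genes above the floor (grey) and the 10 fatty acid synthesis genes (red), with dotted lines at 1.5-fold and both axes limited to 6 log2 units, which leaves 266 genes outside. *Fasn* is the lowest red point at -3.64 and -0.28, *Acaca*, *Me1*, *Acss2* and *Pnpla3* lie above it at -1.82 to -2.66 on the vertical axis and 0.04 to 0.59 on the horizontal axis, and *Fads2* is at the far left.

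The difference between the 2 overload differences, (GW-SA minus GW-Sham) minus (Veh-SA minus Veh-Sham), was beyond 1.5-fold for 8 of 10 synthesis genes. It was lower for 6 and higher for 2, with a median of -1.97, and 36.3% of all genes were lower and 21.5% higher, with a median of -0.27. After centring on the adipocyte markers 10.9% were lower and 48.2% higher, and after trend removal 23.9% and 29.7%. *Fasn* had -3.36, *Pnpla3* -3.08, *Acacb* -2.81, *Acss2* -2.72, *Me1* -2.08 and *Acaca* -1.85. *Elovl6* had 2.30 and *Fads2* 5.81. With values under the negative control 95th percentile set to it, *Acacb* had -0.093, *Acss2* -1.49 and the median was -0.95, and centring on the adipocyte markers gave a median of -1.16. All 4 arrays enter this value, so it carries the tract markers of each.

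Comparing GW-SA with Veh-SA sets the drug against vehicle in overloaded mice. In this comparison 2 synthesis genes were higher (*Fads2* and *Elovl6*), 6 lower and 2 between, with a median log2 difference of -1.67. All genes had 18.4% higher and 18.8% lower, with a median of -0.04, or 40.4% and 5.55% after centring on the adipocyte markers. The lower genes were *Fasn* (-3.07), *Pnpla3* (-2.47), *Acss2* (-2.36), *Acacb* (-2.10), *Me1* (-1.69) and *Acaca* (-1.65). *Acly* differed by -0.27 and *Scd1* by -0.13. Among the adipocyte markers 0 of 16 were higher and 9 lower, with a median of -0.70. The 6 lower synthesis genes lay below all 16. With values under the negative control 95th percentile set to it, *Acacb* was no longer lower (0.076), *Acss2* had -1.13 and the synthesis genes' median was -0.70. Of 8 endothelial markers 7 were lower, with a median of -0.99. Of 11 macrophage markers 8 were higher, with a median of 1.39. Over all markers measured, above the floor or not, the median was 9.80 for 16 epididymal epithelium and 2.74 for 7 neutrophil markers. The part of these cells was not tested. This comparison shares the GW-SA array with the overload comparison under GW4869, so the values of that array enter both.

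Comparing GW-Sham with Veh-Sham sets the drug against vehicle without overload. There 2 synthesis genes were higher (*Acacb* at 0.71 and *Pnpla3* at 0.61), 0 lower and 8 between. Their median log2 difference was 0.32, and all genes had 28.9% higher and 14.4% lower with a median of 0.27. Those shares were 14.4% and 21.9% after centring on the adipocyte markers, and 14.6% and 21.5% after trend removal. *Fasn* differed by 0.29, *Acaca* by 0.20, *Acly* by 0.15, *Acss2* by 0.36, *Me1* by 0.39, *Scd1* by 0.11, *Elovl6* by 0.50 and *Fads2* by -0.55. With each array centred on its adipocyte marker median, 0 were higher and 1, *Fads2*, was lower. *Acacb* differed by 0.17 with values under the negative control 95th percentile set to it. In this comparison 11 of 11 macrophage markers were higher, with a median of 1.69, and 5 of 7 fibroblast and progenitor markers were higher, with a median of 1.06. Over all 15 sperm and testis markers measured, above the floor or not, the median was -10.89. The part of these cells was not tested. The Veh-Sham array also serves the overload comparison under vehicle.

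The genes around the pathway were counted in lists drawn up with earlier results of these data known, from values as deposited. Their counts stand against 13.4% of all genes higher and 15.3% lower in GW-SA than in GW-Sham, and against 30.2% higher and 16.9% lower in Veh-SA than in Veh-Sham. Of 11 citrate export and NADPH genes above the floor, 1 was higher and 5 lower in GW-SA than in GW-Sham, with a median log2 difference of -0.55. In Veh-SA against Veh-Sham 5 were higher and 0 lower, with a median of 0.58. *Slc25a1*, the mitochondrial citrate carrier, read log2 15.04 on GW-SA, 16.63 on GW-Sham, 16.61 on Veh-SA and 16.25 on Veh-Sham. *Idh1*, the cytosolic isocitrate dehydrogenase that yields NADPH, read log2 13.45 on GW-SA, 14.59 on GW-Sham, 14.87 on Veh-SA and 14.33 on Veh-Sham. Both genes, like *Acly*, *Acaca* and *Fasn*, had their lowest value on GW-SA. *Acss3*, a mitochondrial short-chain acyl-CoA synthetase, had the highest overload difference of the list under vehicle, 2.09, and -0.06 under GW4869. *Acss1*, the mitochondrial acetyl-CoA synthetase, differed by 0.77 under GW4869, and its Veh-Sham value of log2 6.28 was under the antigenomic 95th percentile. *Aco1*, the cytosolic aconitase, differed by -0.53 under GW4869 and 0.68 under vehicle. *Me3*, a mitochondrial malic enzyme, lay under the antigenomic 95th percentile on all 4 arrays.

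Of 15 lipogenic transcription regulators above the floor, 1 was higher and 7 lower in GW-SA than in GW-Sham, with a median of -0.32, against 13.4% and 15.3% of all genes. In Veh-SA against Veh-Sham 6 were higher and 0 lower, against 30.2% and 16.9%, with a median of 0.41. *Thrsp*, which encodes Spot 14, a nuclear protein abundant in lipogenic tissue, read log2 15.35 on GW-SA, 17.13 on GW-Sham, 16.81 on Veh-SA and 16.80 on Veh-Sham. *Mlxipl*, which encodes ChREBP, read log2 8.52 on GW-SA, 9.76 on GW-Sham, 10.25 on Veh-SA and 9.28 on Veh-Sham. Its overload difference was -1.24 under GW4869 and 0.96 under vehicle. *Insig1*, whose protein holds SREBP in the endoplasmic reticulum and whose gene is itself an SREBP target, differed by -1.33 under GW4869 and 0.88 under vehicle. *Nr1h3*, the liver X receptor alpha gene, differed by -0.67 and 1.24, and *Usf2*, an E-box binding factor, by -0.09 and 0.97. *Usf1* differed by -0.60 under GW4869, and read log2 7.71 on Veh-SA and 5.89 on Veh-Sham, the Veh-Sham value being under the antigenomic 95th percentile. *Srebf1* and *G6pdx* are not analysed here.

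Of 10 genes of malonyl-CoA and carboxylase regulation, 2 were higher and 3 lower in GW-SA than in GW-Sham, with a median of -0.16. In Veh-SA against Veh-Sham 2 were higher and 1 lower, both shares under those of all genes, with a median of 0.43. *Mid1ip1*, which encodes a protein that promotes polymerisation and activity of acetyl-CoA carboxylase, read log2 10.16 on GW-SA, 7.07 on GW-Sham, 6.25 on Veh-SA and 7.88 on Veh-Sham. The Veh-SA value was under the antigenomic 95th percentile, and only the GW-SA value exceeded the negative control 95th percentile. The highest array for *Mid1ip1* was GW-SA, the lowest one for *Acaca*. *Prkaa2*, a catalytic subunit of the AMP-activated kinase that phosphorylates the carboxylases, read log2 6.57 on GW-SA, 8.23 on GW-Sham, 8.23 on Veh-SA and 7.46 on Veh-Sham. *Mlycd*, the malonyl-CoA decarboxylase, differed by -0.88 under GW4869, and read log2 7.78 on Veh-SA and 6.29 on Veh-Sham, which was under the antigenomic 95th percentile. *Prkab1*, another AMP-activated kinase subunit, differed by 0.90 under GW4869 and -0.28 under vehicle.

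Of 16 genes of elongation, desaturation and activation above the floor, 3 were higher and 3 lower in GW-SA than in GW-Sham, with a median of -0.36, shares close to those of all genes. In Veh-SA against Veh-Sham 2 were higher and 4 lower, with a median of -0.04. *Elovl5*, the elongase that acts after *Fads2*, read log2 13.47 on GW-SA, 13.93 on GW-Sham, 13.71 on Veh-SA and 13.53 on Veh-Sham, a span well under that of *Fads2*. *Acsl4*, an acyl-CoA synthetase that prefers arachidonate, had log2 9.86 on Veh-SA and 11.38 on Veh-Sham, and like *Fads2* was lowest on Veh-SA. *Scd3*, a relative of *Scd1*, read log2 7.13 on GW-SA and 6.83 on Veh-Sham, and was under the antigenomic 95th percentile on GW-Sham and Veh-SA. *Elovl7* lay under that percentile on all 4 arrays.

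**Figure D4:**
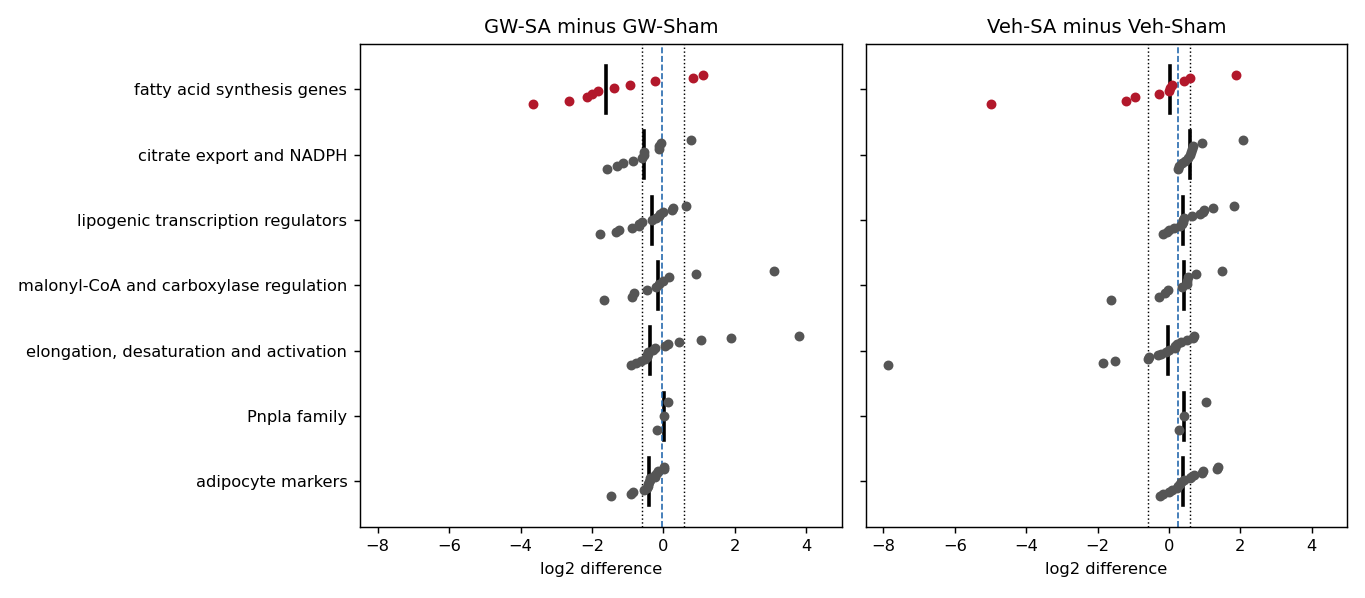
Log2 difference (horizontal axes) of each gene above the floor in the synthesis genes (red), 5 pathway lists and the adipocyte markers (grey), for GW-SA minus GW-Sham on the left and Veh-SA minus Veh-Sham on the right, with a black bar at each list's median, dotted lines at 1.5-fold and a dashed line at the median of all genes. The synthesis genes have their median at -1.60 on the left and 0.02 on the right.

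Profiles over the 4 arrays were compared by Euclidean distance between log2 values centred per gene, only for genes outside the 10 synthesis genes. Most like the median profile of the 10 were *Cd200* (0.14), *Htra1* (0.14), *Thrsp* (0.16), *Aspn* (0.16), *Agpat2* (0.17) and *Epb41l2* (0.18). The nearest to *Fasn* were *Ranbp3l* (1.15), *Orm1* (1.20), *Lctl* (1.21), *Dusp10* (1.23), *Tmem45b* (1.29) and *Asic2* (1.30). With 4 arrays these distances describe the arrays only. Predicted gene models and the other synthesis genes left aside, the *Fasn* profile had no neighbour within 1 log2 unit, whereas the median profile had 6 within 0.18. Distances between the synthesis genes themselves are not given.

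*Fasn*, *Acss2* and *Pnpla3* were 3 of the 5 genes set apart on GW-SA, *Acaca* and *Me1* being the others. *Fads2* had the widest span over the arrays. The promoters of 4 genes, *Fasn*, *Acss2*, *Pnpla3* and *Fads2*, are printed. Each is the 250 bases before the RefSeq start site, on the gene's strand and 5′ to 3′, in build GRCm38.p6, with matches to CCAAT (the NF-Y box) and GGGCGG (the GC box that Sp1 family proteins can bind), read on both strands, in capitals. The *Fasn* window is chr11:120824548-120824797 on the minus strand. The *Acss2* window is chr2:155517793-155518042 on the plus strand, *Pnpla3* chr15:84167566-84167815 on the plus strand, and *Fads2* chr19:10101504-10101753 on the minus strand.
Fasn: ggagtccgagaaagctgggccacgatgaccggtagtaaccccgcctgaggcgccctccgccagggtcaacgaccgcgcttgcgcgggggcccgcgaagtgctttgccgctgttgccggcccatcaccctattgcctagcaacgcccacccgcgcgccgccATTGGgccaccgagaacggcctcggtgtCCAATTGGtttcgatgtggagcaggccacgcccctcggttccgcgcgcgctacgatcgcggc
Acss2: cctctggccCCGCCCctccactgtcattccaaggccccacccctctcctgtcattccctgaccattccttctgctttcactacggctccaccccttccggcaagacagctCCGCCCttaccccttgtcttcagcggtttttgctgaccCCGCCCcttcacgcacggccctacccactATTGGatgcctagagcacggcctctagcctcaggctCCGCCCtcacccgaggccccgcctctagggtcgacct
Pnpla3: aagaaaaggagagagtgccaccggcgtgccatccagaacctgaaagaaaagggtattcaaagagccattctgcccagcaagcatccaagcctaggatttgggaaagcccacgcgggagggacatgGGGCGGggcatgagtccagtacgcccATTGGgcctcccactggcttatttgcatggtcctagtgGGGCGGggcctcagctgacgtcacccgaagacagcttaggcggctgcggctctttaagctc
Fads2: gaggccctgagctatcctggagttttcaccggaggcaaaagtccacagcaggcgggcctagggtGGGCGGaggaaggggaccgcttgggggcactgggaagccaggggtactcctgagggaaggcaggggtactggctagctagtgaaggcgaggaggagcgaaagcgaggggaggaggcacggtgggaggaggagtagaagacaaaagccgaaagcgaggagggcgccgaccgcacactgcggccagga

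RefSeq gave 10 windows for 9 of the 10 genes, *Me1* with 2, and *Scd1* is named only. CCAAT was present in 5 of the 10 windows, those of *Fasn*, *Acss2*, *Pnpla3* and *Acacb* and an *Me1* window, and in 33.8% of all 32851 windows. In *Fasn* it began 90, 62 and 59 bases before the start, the last 2 matches overlapping on opposite strands, as the run of capitals shows. GGGCGG was present in 5 of the 10 windows, those of *Acly*, *Acss2*, *Fads2* and *Pnpla3* and the other *Me1* window, and in 32.7% of all windows. *Acss2* had it at 241, 140, 102 and 37 bases before the start, *Pnpla3* at 125 and 61, and *Fads2* at 186. Neither CCAAT nor GGGCGG was present for *Acaca*, which was also set apart on GW-SA, or for *Elovl6*. The E-box CACGTG, bound by USF and ChREBP, was in 0 of the 10 windows and in 6.02% of all windows. TCACNCCAC, the core of a sterol response element, was in 0 of the 10 and in 1.05% of all windows. The *Fasn* window was 69.2% G or C, against a median of 52.4% over all windows. A match is a description of these letters only.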

How the data were processed

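For 4 Clariom S Mouse arrays of Trizol-extracted RNA, the authors' table holds log2 values by probe set. The submitters' processing notes name RMA and Partek, and the sources used here give neither version nor settings. The deposited table has 28846 rows, and the platform annotation names 19572 probe sets, all found in RefSeq with 0 symbols altered. The probe set with the highest mean was kept for each of 19505 genes. Groups came from the sample titles. Differences of log2 values and counts at 1.5-fold were computed with Python 3.11.15, numpy 2.4.6, pandas 2.3.3 and scipy 1.17.1, and the code was tested on simulated data. With 1 array per group no p-value was computed, and precision is limited by the number of arrays.

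The members, pathway lists and marker lists were chosen with earlier results of these data known. The distal epididymis and vas deferens list was assembled from such results. Named were all members, up to 3 genes above the floor per pathway list with the largest difference in each overload comparison, and 6 preset regulators and NADPH genes. Also named were the 6 profiles of non-member genes nearest to the members' median and to *Fasn*. *Adipoq*, *Gpx5*, *Cidea*, *Fads1*, *Elovl5* and the mesothelial and epithelial genes were named after their values were seen. Alternatives changed the scaling between arrays, the trend on level, the treatment of low values, the probe set rule and the threshold.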

Additional observations from a re-analysis of the deposited data

Results flagged for a closer look

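For 7 of the 10 synthesis genes the overload difference had opposite signs under GW4869 and under vehicle, as it did for 6463 of 11703 genes above the floor, or 55.2%. The difference was not tested, since each group is 1 array. The overload difference under GW4869 minus that under vehicle was -3.08 for *Pnpla3*, -2.81 for *Acacb*, -2.72 for *Acss2*, -2.08 for *Me1* and -1.85 for *Acaca*, which were lower with overload under GW4869 and higher under vehicle. For *Acaca* and *Me1* the vehicle difference was only 0.04 and 0.09, so the sign there rests on a small value. It was 2.30 for *Elovl6* and 5.81 for *Fads2*, which were higher with overload under GW4869 and lower under vehicle. *Acacb* was measured under the negative control 95th percentile on all 4 arrays.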

How the results depend on the processing

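No paired analysis was possible because each group has 1 array. The synthesis genes' median log2 difference ranged over the alternatives from -1.82 to -1.13 for GW-SA against GW-Sham, from -0.46 to 0.05 for Veh-SA against Veh-Sham, from -0.01 to 0.36 for GW-Sham against Veh-Sham, from -1.76 to -0.70 for GW-SA against Veh-SA, and from -2.08 to -0.95 for the difference of the overload differences. Of the settings, 3 (the probe set rule, the floor and the antigenomic percentile) could not alter any synthesis gene. Under the other 5, of 250 single-gene differences recomputed 222 stayed on their side of 1.5-fold and moved by less than 1.5-fold, though some differences near 0 turned sign. An alternative chosen after seeing the data set values under the negative control 95th percentile to it. It gave medians of -0.70 for GW-SA against Veh-SA and -0.95 for the difference of differences, and turned *Acacb* to 0.091 for GW-SA against GW-Sham and 0.076 for GW-SA against Veh-SA, because all its values were then that percentile. Centring on the adipocyte markers gave -1.16 for the difference of differences. That centring gave an all-gene median of 0.54 for it, against -0.27 as deposited, and of 0.30 for GW-SA against GW-Sham, -0.22 for Veh-SA against Veh-Sham and 0.44 for GW-SA against Veh-SA, against -0.04, 0.26 and -0.04 as deposited.

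The count of lower genes in GW-SA against GW-Sham stayed at 6 or 7. The 2 higher genes of Veh-SA against Veh-Sham became 1 under adipocyte centring, trend removal, the negative control setting and a 2-fold threshold. The 2 higher genes of GW-SA against GW-Sham became 1 at 2-fold. For GW-Sham against Veh-Sham the 2 higher genes became 0 under adipocyte centring, trend removal and 2-fold and 1 under the negative control setting, and the 0 lower became 1 under adipocyte centring, quantile normalization and trend removal. Values near the floor lie within background, and that floor uses each gene's mean only.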

Other observations

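Among the other marker lists, those of liver had medians between log2 3.32 and 5.02 and those of skeletal muscle between 3.77 and 4.61 on the 4 arrays, all under the antigenomic 95th percentile. Leydig and Sertoli cell markers had medians of log2 2.94 on GW-SA, 3.41 on GW-Sham, 3.81 on Veh-SA and 5.79 on Veh-Sham, with 2 of 7 above that percentile on Veh-Sham. Neutrophil markers had 4 of 7 above the percentile on GW-SA and 0 on each other array, and the neutrophil gene *S100a8*, named after its value was seen, read log2 8.63 on GW-SA, 4.90 on GW-Sham, 5.14 on Veh-SA and 3.44 on Veh-Sham.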
